A study of Mus musculus castaneus and Mus musculus domesticus with 13 samples.

Results

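The Hox genes of the 4 mouse clusters were followed across 13 RNA-sequencing libraries. They were taken as every row of the count table whose symbol was Hoxa, Hoxb, Hoxc or Hoxd followed by a number, which gave 43 of the 21706 genes in the table. Of these, 39 were protein-coding (11 Hoxa, 10 Hoxb, 9 Hoxc and 9 Hoxd genes) and 4 were antisense transcripts (Hoxa11os, Hoxb3os, Hoxb5os and Hoxd3os1). In GRCm38 Hoxa lay on chromosome 6, and the coding genes of Hoxb spanned chr11:96194316-96368256, those of Hoxc chr15:102921103-103036852 and those of Hoxd chr2:74668310-74765142.

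The libraries came from 10 embryonic stem cell lines made by somatic cell nuclear transfer (ntESC), 1 embryonic stem cell (ESC) line and 2 fibroblast cultures. The nuclear donors were leukocytes from peripheral blood. The ntESC lines comprised 1 male (#M3) and 1 female (#F2) line of B6D2F1, the laboratory hybrid, and 2 male and 2 female lines of each of the wild-derived castaneus strains CAST (#M2, #M8, #F1, #F2) and CASP (#M3, #M5, #F4, #F6). Each line was 1 clone and gave 1 library, so the p-values of the strain and sex comparisons measure the spread between lines. In the comparison with fibroblasts the 2 fibroblast cultures were taken as 1 group and the ntESC strains were pooled. The spread behind those p-values therefore also holds differences of strain and tissue. The ESC line and the mouse embryonic fibroblasts (MEF) were B6D2F1 and wild type. The CAST fibroblasts were labelled wild type without a tissue, and the study's text calls them tail-tip fibroblasts (TTF). No sex was given for the ESC, MEF and TTF libraries. The stem cell lines were grown on embryonic fibroblast feeder cells, which were removed on gelatin before RNA extraction.

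Hox genes encode transcription factors that tell cells where they lie along the head-to-tail axis and along the limbs. Genes that hold the same place in different clusters are paralogs and carry the same number. Low numbers are used from the hindbrain downwards, high numbers towards the tail, the digits and the external genitalia. In pluripotent cells the clusters are held silent by Polycomb proteins and open in order from the low-numbered end when cells are exposed to retinoic acid. Adult fibroblasts keep the Hox pattern of the body site they were taken from. Below, paralogs 1 to 3 are called anterior (8 coding genes), 4 to 8 central (15) and 9 to 13 posterior (16).

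The homeobox codes for the domain that binds DNA. It is shown here for the 4 genes of paralog group 13, on which the fibroblast comparison turned, and for Hoxb9. Hoxb9 was high in both fibroblast cultures and, at a far lower level, among the highest Hox genes in the stem cell lines. The sequences were read from GENCODE M21 transcripts. Capitals mark codons 42 to 58 of the 60-codon homeobox, the part that codes for the recognition helix, which lies in the major groove of DNA.
Hoxb9: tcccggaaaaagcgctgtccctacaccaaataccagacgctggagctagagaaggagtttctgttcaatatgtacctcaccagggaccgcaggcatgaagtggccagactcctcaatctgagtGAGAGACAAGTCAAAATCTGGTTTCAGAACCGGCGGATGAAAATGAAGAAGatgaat
Hoxa13: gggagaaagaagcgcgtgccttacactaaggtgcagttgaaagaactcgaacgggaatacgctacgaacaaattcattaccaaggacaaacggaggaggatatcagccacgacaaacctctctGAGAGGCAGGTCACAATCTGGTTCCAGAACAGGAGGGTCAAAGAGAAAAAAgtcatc
Hoxb13: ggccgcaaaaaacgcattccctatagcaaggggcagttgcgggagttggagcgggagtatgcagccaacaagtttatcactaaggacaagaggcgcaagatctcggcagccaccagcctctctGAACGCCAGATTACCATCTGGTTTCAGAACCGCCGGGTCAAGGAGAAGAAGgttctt
Hoxc13: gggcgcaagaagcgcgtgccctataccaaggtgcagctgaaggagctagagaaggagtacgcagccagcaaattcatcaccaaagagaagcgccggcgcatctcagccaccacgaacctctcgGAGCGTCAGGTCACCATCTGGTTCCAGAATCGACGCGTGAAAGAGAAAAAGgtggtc
Hoxd13: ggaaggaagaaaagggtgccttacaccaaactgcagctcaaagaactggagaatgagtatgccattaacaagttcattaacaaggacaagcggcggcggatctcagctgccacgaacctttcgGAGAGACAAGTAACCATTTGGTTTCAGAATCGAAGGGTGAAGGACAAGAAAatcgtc

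The 180 bases were coding exon of each gene. They lay at chr11:96274659-96274838 on the plus strand for Hoxb9 and chr6:52258928-52259107 on the minus strand for Hoxa13. The homeoboxes of Hoxb13 (chr11:96196020-96196199), Hoxc13 (chr15:102927210-102927389) and Hoxd13 (chr2:74669930-74670109) were on the plus strand. Within group 13 the identity over these bases ran from 67.2% (Hoxb13 and Hoxd13) to 77.2% (Hoxa13 and Hoxc13). Hoxb9 shared 53.3% with Hoxa13, 55.6% with Hoxd13, 57.2% with Hoxc13 and 60% with Hoxb13. Stretches of 100 identical bases, the length of 1 read, were shared between members only by Hoxc5 and Hoxc10 and by Hoxd3 and Hoxd4. The group 13 genes therefore had no such stretch in common, whereas the annotated exons of Hoxd3 and Hoxd4 lay on the same strand as exons of other genes over 62.3% and 52.3% of their length, so the levels of these 2 genes are uncertain.

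Total counts ran from 33395162 to 49968894 per library. Levels are given as CPM, counts scaled to a common library size with TMM factors, and levels of different genes are compared only as CPM per kilobase of annotated exon. A floor of 3 counts, the upper limit that a count of 0 allows, came to between 0.0573 and 0.0926 CPM. Pou5f1, Zfp42 and the other 6 pluripotency markers summed to 3557 to 4521 CPM in the 11 pluripotent libraries, 19.3 CPM in MEF and 0.579 CPM in TTF. The 18 fibroblast markers summed to 7023 CPM in MEF, 13520 CPM in TTF, 224.6 CPM in ESC and between 104.6 and 489.4 CPM in the ntESC lines. Only Twist2 and Fap were at 0 in any line.

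Hox patterns in the 2 fibroblast cultures were compared first. Embryonic fibroblasts had counts in every cluster from end to end. All 43 members were over 3 counts, as were 19438 of all 21706 genes. The lowest members were Hoxb1 (10 counts) and Hoxb13 (6 counts). In TTF 34 of the 43 members were over 3 counts, beside 17955 of all genes. Tail-tip fibroblasts expressed the posterior ends of Hoxa, Hoxb and Hoxc and also Hoxb3, Hoxb6 and Hoxb7, whereas Hoxd was nearly silent and most anterior and central genes were lower than in MEF. The summed level of the 39 coding genes was 703.5 CPM in MEF and 391.8 CPM in TTF. The anterior genes summed to 142.3 CPM in MEF and 16.35 CPM in TTF, and the central genes to 326.9 and 40.7 CPM. The posterior genes went the other way, with 234.3 CPM in MEF and 334.8 CPM in TTF.

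**Figure D1:**
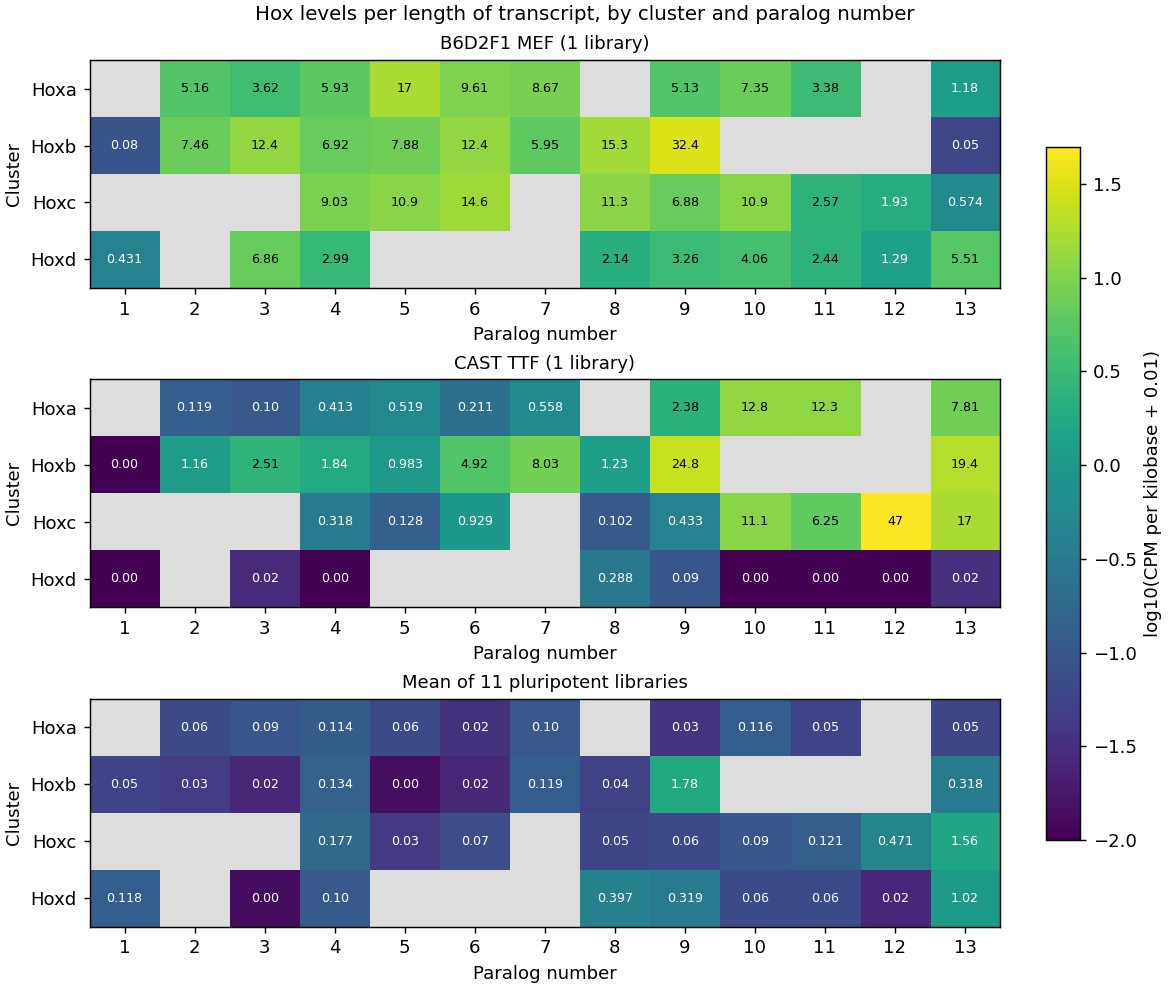
Level of 38 coding Hox genes (CPM per kilobase of exon, printed in each cell, colour on a log10 scale) by cluster (rows) and paralog number (columns) in MEF, TTF and as the mean of the 11 pluripotent libraries. Grey cells hold no gene or one not shown. The highest TTF levels of Hoxa, Hoxb and Hoxc are in posterior genes, Hoxb7 (8.03) and Hoxb6 (4.92) are also well above 0, and Hoxd is near 0 throughout, and the pluripotent mean is above 1 CPM per kilobase for Hoxb9, Hoxc13 and Hoxd13.

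With 1 library per culture there is no replicate check, and the cultures also differed in strain, age of the animal and tissue, which cannot be told apart. Summed markers of neural cells (1355 and 51.0 CPM), smooth muscle (7826 and 1058 CPM) and epidermis (116.7 and 31.7 CPM) were higher in MEF than in TTF. Those of endothelium (34.7 and 527.5 CPM) and leukocytes (58.9 and 386.6 CPM) were higher in TTF, mostly through Esm1 (459.6 CPM) and Lyz2 (324.6 CPM). The part of other cell types in the Hox patterns was not tested. At a ratio of at least 4-fold on CPM + 0.5, 4 of 43 members were higher in TTF and 24 were lower, against 8.51% of all 21706 genes higher and 9.53% lower. The 4 that were higher were all posterior, namely Hoxa13, Hoxb13, Hoxc12 and Hoxc13. Of the 24 that were lower, 23 were coding genes, of which 5 were anterior, 12 central and 6 posterior. The median log2 ratio was -2.40 over the 43 members and -0.03 over all genes.

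Hoxb13, which is used in the tail bud and in the skin of the lower body, had the largest ratio. It had 6 counts in MEF (0.115 CPM) and 1630 counts in TTF (42.9 CPM). The TTF level was 375-fold higher, with an exact 95% interval of 172 to 1022 that covers counting error only. In the 11 pluripotent libraries Hoxb13 was between 0.0502 and 1.59 CPM, above MEF (0.115 CPM) in 10 of 11 and far below TTF in all.

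Hoxc13, a regulator of hair and nail keratins, stood at 1.41 CPM in MEF and 41.9 CPM in TTF, a 29.7-fold difference (interval 23.5 to 38.0). Its neighbour Hoxc12 stood at 1.99 CPM in MEF and 48.5 CPM in TTF, 24.4-fold higher (20.04 to 30.05). Hoxa13, needed for digits and the urogenital tract, rounded off the group with 2.92 CPM in MEF and 19.3 CPM in TTF, 6.61-fold higher (5.54 to 7.92). Hoxc12 also had the highest level per length of all Hox genes in TTF, at 47.04 CPM per kilobase.

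Hoxd13, the fourth gene of paralog group 13 and the classical digit gene, took the opposite course. It had 716 counts in MEF (13.7 CPM) and 2 counts in TTF (0.0527 CPM), so that TTF was 260-fold lower with a counting interval of 71.6 to 2148. Group 13 was thus divided by cluster, with 3 genes higher in TTF and 1 higher in MEF.

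The whole Hoxd cluster followed Hoxd13. Its 9 coding genes summed to 85.8 CPM in MEF and 1.11 CPM in TTF, and 8 of the 9 passed 4-fold. In TTF only Hoxd8 (30 counts) and Hoxd9 (7 counts) were over 3 counts. Hoxd1, Hoxd4, Hoxd10, Hoxd11 and Hoxd12 had no count. Against the floor of 3 counts in that library, Hoxd11 was at least 130-fold lower in TTF, Hoxd4 at least 112-fold, Hoxd10 at least 93.3-fold and Hoxd12 at least 41.3-fold. Hoxd3, whose loss in mice alters the first neck vertebrae, had 1506 counts in MEF (28.8 CPM) and 3 in TTF (0.079 CPM), 364-fold lower (124 to 1767), with the reservation on its shared exons given above.

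In the other clusters the largest differences in the same direction were in central genes. Hoxc8, a gene of the lower neck and chest region, had 31.9 CPM in MEF and 0.290 CPM in TTF, 110-fold lower (61.5 to 221). Hoxc5 had 33.6 CPM in MEF and 0.395 CPM in TTF, 85.1-fold lower (51.5 to 153). Between these genes and the posterior end lay members of similar level in both cultures, such as Hoxc10 at 20.8 CPM in MEF and 21.2 CPM in TTF.

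**Figure D2:**
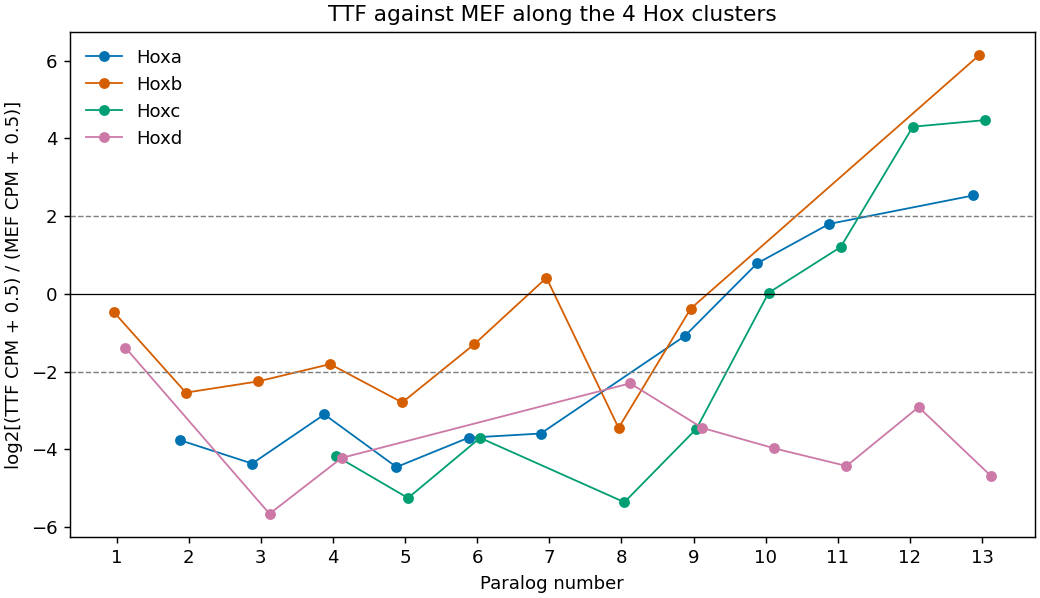
Ratio of TTF to MEF on CPM + 0.5 (log2 axis) by paralog number for 38 coding genes, 1 line per cluster. Dashed lines mark 4-fold. Among paralogs 1 to 9 only Hoxb7 (0.41) lies above 0; Hoxa, Hoxb and Hoxc end above 4-fold at paralog 13, whereas every Hoxd gene lies below 0.

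Towards the posterior end of Hoxc and Hoxa the log2 ratio was larger at each successive gene. In Hoxc it went from -5.36 at Hoxc8 and -3.47 at Hoxc9 to 0.03 at Hoxc10, 1.21 at Hoxc11, 4.30 at Hoxc12 and 4.47 at Hoxc13. In Hoxa it went from -3.59 at Hoxa7 and -1.08 at Hoxa9 to 0.78 at Hoxa10, 1.80 at Hoxa11 and 2.53 at Hoxa13. The genes before these followed no such order, with -5.25 at Hoxc5 and -3.71 at Hoxc6. Hoxb did not either, since Hoxb8 (-3.45) lay between Hoxb7 (0.41) and Hoxb9 (-0.38). The offset of 0.5 CPM draws the ratios of low genes towards 0, which touched all genes without counts in TTF.

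Per length of transcript, Hoxb9 was the highest Hox gene in MEF at 32.4 CPM per kilobase, and it led Hoxb in TTF as well at 24.8. In MEF the highest members of the other clusters were Hoxa5 (17.0 CPM per kilobase), Hoxc6 (14.6) and Hoxd3 (6.86). In TTF they were Hoxa10 (12.8), Hoxc12 (47.04) and Hoxd8 (0.288). The leading gene thus lay further towards the posterior end in TTF than in MEF in Hoxa and Hoxc.

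The antisense transcripts followed their surroundings in part. Hoxa11os, which overlaps Hoxa11 on the other strand, had 7.22 CPM in MEF and 18.7 CPM in TTF, beside 7.73 and 28.2 CPM for Hoxa11. Hoxb3os had 5.75 CPM in MEF and 0.685 CPM in TTF and was the only one of the 4 past 4-fold. Hoxb5os stood at 4.85 and 1.58 CPM. Hoxd3os1 had 48 counts in MEF and 3 in TTF. The kit kept strand, but the strand setting of the counting was not given in the sources used here, so sense and antisense counts may be mixed where exons overlap.

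The clusters were close to silent in the pluripotent cells. The 43 members summed to 25.9 CPM in ESC and 19.6 to 30.6 CPM in the ntESC lines, which was 2.72% to 4.23% of the level in MEF. A few genes made up much of this signal. Hoxb9, Hoxc13, Hoxd13 and Hoxd8 held 46.4% of all Hox counts in ESC and 45.2% to 58.8% in the ntESC lines. Their share was 14.4% in MEF and 25.8% in TTF. These genes are among the highest members in the pluripotent libraries, so a larger share there follows in part from their choice. The 15 central coding genes together stood at 0.491% to 1.79% of MEF in the 11 libraries.

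Between 18 and 33 members were over 3 counts in each pluripotent library, with the lowest number in CASP #F6. That line also had the fewest total counts (33395162). CAST #M8 and #F2, with 33 members each, had the most of the ntESC lines (45686935 and 45690960). CAST #F1 had 22 members at 39444820 total counts. The part of sequencing depth in these numbers was not tested. The share of all genes over 3 counts was not determined for these libraries. Counting the members over 3 counts in all 11 libraries gave 9, among them Hoxa7, Hoxb9, Hoxc4, Hoxc12, Hoxc13, Hoxd8, Hoxd9 and Hoxd13. At the other end, Hoxb3os and Hoxb5 never passed 3 counts and Hoxb5os had no count in any pluripotent library. Only 8 members reached 1 CPM in any of the 11.

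Hoxb9, a gene of the chest region, had a mean of 1.78 CPM per kilobase, or 4.58 CPM, over the 11 libraries. The pluripotent libraries ran from 2.54 CPM in ESC through a ntESC median of 4.83 to 6.98 CPM in CASP #F6, against 83.3 CPM in MEF and 63.9 CPM in TTF. No pluripotent library came near the fibroblasts.

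Hoxc13 had a mean of 1.56 CPM per kilobase, or 3.83 CPM, and was highest in ESC, at 7.50 CPM. It stood at 4.32 and 5.41 CPM in B6D2F1 #M3 and #F2, 3.57, 3.94, 4.32 and 3.30 CPM in CAST #M2, #M8, #F1 and #F2, and 1.71, 2.01, 3.48 and 2.59 CPM in CASP #M3, #M5, #F4 and #F6. Every pluripotent library was above MEF (1.41 CPM) and below TTF (41.9 CPM).

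Whether this signal could come with feeder cells was looked at by setting each member's level, as a percentage of MEF, beside that of the 18 fibroblast markers in the same library. The markers stood at 1.49% (CASP #M5) to 6.97% (CAST #F2) of MEF. In all 11 libraries 16 members were below the markers, among them Hoxb3, Hoxb5, Hoxb6, Hoxb8, Hoxc8 and Hoxd3, which were abundant in MEF. The other way round, 7 members were above the markers in all 11 libraries, among them Hoxb13, Hoxc12, Hoxc13, Hoxd1, Hoxd8 and Hoxd13. The remaining 20 were above in some libraries and below in others. Of the members always above, Hoxb13 (0.115 CPM), Hoxd1 (0.802), Hoxc13 (1.41) and Hoxc12 (1.99) were low in MEF, which makes their percentages large. Hoxd8 and Hoxd13 had 5.86 and 13.7 CPM there. CAST #F2, with the markers at 6.97%, had the central coding genes at 0.846% of MEF, and CASP #M3, with the markers at 6.56%, had them at 1.79%. CASP #F6, at 5.48%, had them at 0.501%, and the lowest value, 0.491%, was that of CAST #F1 (markers at 3.12%). The single markers ranged widely, from 0.313% to 1.68% of MEF for Prrx1 and from 10.7% to 61.0% for Thy1, and the feeders were of another strain than the MEF library. The share of all genes below or above the markers was not determined. The part of feeder RNA was not tested for any member, whether within the markers' range or outside it.

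**Figure D3:**
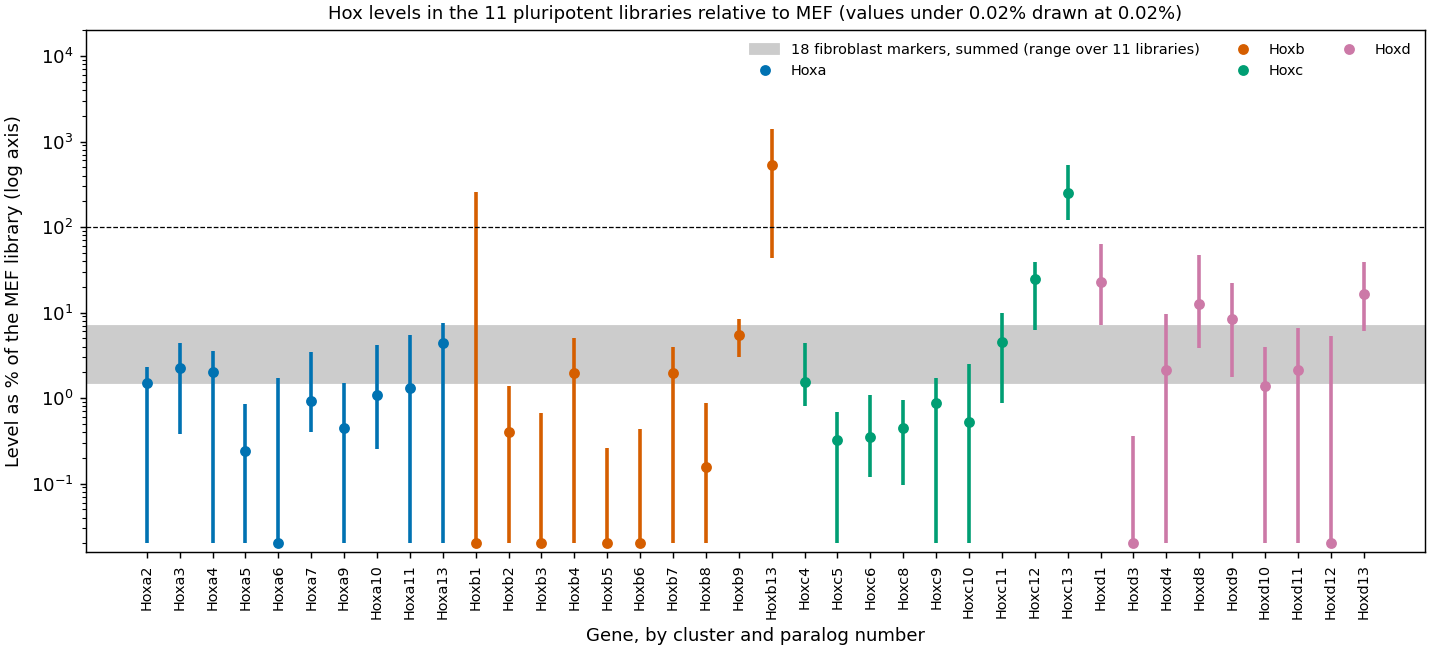
Level of 38 coding Hox genes in the 11 pluripotent libraries as a percentage of its level in MEF (log axis). Points are medians, lines run from the lowest to the highest library, the grey band is the range of the 18 summed fibroblast markers (1.49% to 6.97%) and the dashed line is 100%. Hoxb13 and Hoxc13 have medians above 100%, and Hoxa6, Hoxb1, Hoxb3, Hoxb5, Hoxb6, Hoxd3 and Hoxd12 have medians of 0.

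The 10 ntESC lines were then compared with the 2 fibroblast libraries, to ask which Hox genes differ between pluripotent cells and fibroblasts. Of the 43 members, 37 passed the filter on low counts and were tested. By the edgeR quasi-likelihood test at an adjusted p of 0.05, 33 were lower in ntESC and 1 was higher, where 28.2% of all 20896 tested genes were lower and 23.6% higher. The median log2 fold change was -6.02 over the 37 members (-5.79 with Hoxb5os at its bound) and 0.07 over all tested genes. The members that did not pass the filter were Hoxa2, Hoxa6, Hoxb1, Hoxd3, Hoxd3os1 and Hoxd12, all of which had at most 8 counts in TTF. Members with few counts in the lines passed it through the fibroblast libraries, so a higher call was not open to them. Hoxb5os had 0, Hoxb3os 2, Hoxb5 4 and Hoxb6 13 counts in the 10 lines together. The count of 33 lower members was therefore set in part by the filter. Fewer expressing cells and less RNA per cell cannot be told apart in these bulk libraries.

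Among the genes that were lower, Hoxb9 fell by 3.99 (SE 0.24, edgeR adjusted p = 8.73e-08), from 73.6 ± 13.7 CPM (SD, n = 2) in the fibroblasts to 4.78 ± 1.22 CPM (n = 10) in ntESC. Hoxb5 had 21.96 CPM in MEF, 2.74 CPM in TTF and only 4 counts in the 10 lines together. Its fall of 9.87 on the log2 scale rests on those 4 counts, and it passed the filter through the fibroblasts. Hoxb5os, at 0 in all lines, was at least 34.7-fold lower against the floor of 3 counts per library.

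Because the 2 fibroblast cultures differed so much, the result depended on which one was used. Without TTF, 38 of 43 members were lower and none was higher by edgeR. Without MEF, 24 of 38 members were lower and 3 were higher, among them Hoxd1 and Hoxd13 (5.52, edgeR adjusted p = 0.00462). In these fits the lone fibroblast library is assumed to vary like the other samples. Hoxd13 was lower in ntESC than in MEF (-2.36, edgeR adjusted p = 0.0125). Hoxc13 was lower than in TTF (-3.65, edgeR adjusted p = 6.48e-06) and had a log2 difference of 1.29 from MEF (adjusted p = 0.107). Hoxb13 was likewise lower than in TTF (-6.18, edgeR adjusted p = 3.34e-05) and differed by 2.38 from MEF (adjusted p = 0.237).

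**Figure D4:**
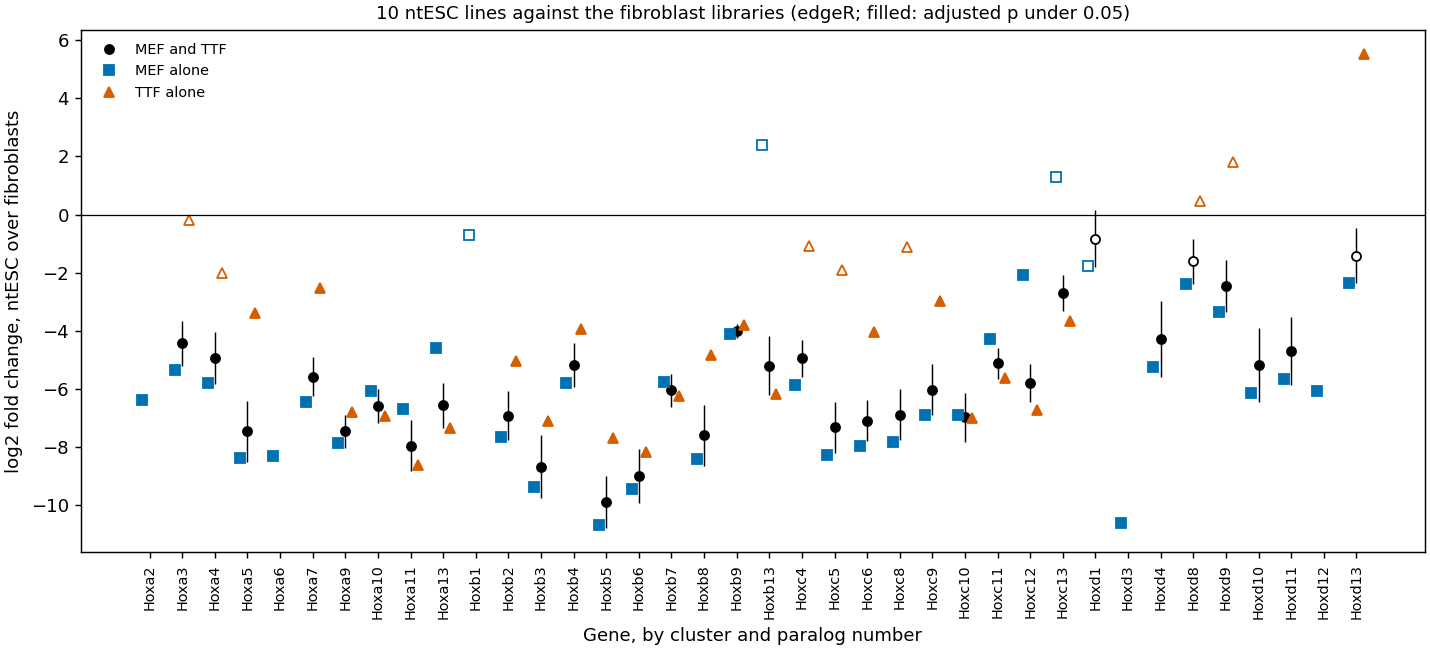
Log2 fold change of ntESC over fibroblasts for 38 coding Hox genes, against both fibroblast libraries (black circles with SE), MEF alone (blue squares) and TTF alone (orange triangles). Filled symbols have an edgeR adjusted p under 0.05. Genes left out by the low-count filter, and genes without counts in TTF in the TTF fit, are not drawn. Hoxb9 lies below 0 in all 3 fits, and Hoxd13 lies below 0 against MEF and above 0 against TTF.

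Genes that work with or around the Hox clusters were examined as lists. Their counts in ntESC against fibroblasts stand beside 28.2% of all tested genes lower and 23.6% higher. The TALE cofactors, Pbx, Meis and Pknox proteins that bind DNA together with Hox proteins, went with the clusters. Of 9 tested, 7 were lower in ntESC and none was higher, with a median log2 fold change of -2.38. Meis1 (-5.96, edgeR adjusted p = 3.05e-06) and Meis3 (-5.20, adjusted p = 1.13e-07) were among those that were lower. Among 12 genes of retinoic acid synthesis, binding and response, 10 were lower and none higher (median -2.51), led by the retinoic acid hydroxylase Cyp26b1 (-5.56, edgeR adjusted p = 6.21e-07) and the retinol transporter Stra6 (-5.17, adjusted p = 3.05e-05).

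The caudal genes, which activate Hox genes in the tail bud, went the other way. Cdx1, Cdx2 and Cdx4 were higher in ntESC, 3 of the 5 tested caudal and ParaHox genes (median 3.51), and none was lower. All 3 were at 0 CPM in MEF and at no more than 0.079 CPM in TTF. They passed the filter through the lines, so a lower call was not open to them. Cdx1 had no count in either fibroblast library and 9.26 ± 4.61 CPM (SD, n = 10) in the lines, at least 117-fold higher. Cdx2 ran from 0.517 to 2.56 CPM in the lines with a log2 fold change of 5.46 (edgeR adjusted p = 0.000845).

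Of 12 tested noncoding and flanking genes of the clusters, 4 were higher and 3 lower (median 0.14). They were thus called about as often as genes overall (23.6% higher and 28.2% lower). Ttll6, a flanking gene of the Hoxb cluster, had no count in either fibroblast library and 2.202 to 12.63 CPM in the lines, at least 79.1-fold higher. Halr1, a long noncoding RNA next to the Hoxa cluster, was higher in ntESC (6.79, edgeR adjusted p = 2.92e-05), at 4.91 to 11.1 CPM in the lines, 0.115 CPM in MEF and 0 in TTF. Ttll6 and Halr1 likewise passed the filter through the lines, so a lower call was not open to them. Hotair, transcribed within Hoxc, was lower (-4.11, edgeR adjusted p = 0.00324), as was Haglr of the Hoxd cluster (-3.65, adjusted p = 0.00445). Other position and limb factors gave 19 lower and 1 higher of 23 tested (median -4.08), and the exception was the head gene Otx2 (4.803, edgeR adjusted p = 0.0079). Developmental transcription factor genes outside the clusters, homeobox genes except for Gata4, gave 8 lower and none higher of 14 (median -3.51).

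The remaining comparisons asked whether the low Hox signal differed between strains or sexes of ntESC. Of the 43 members, 25 passed the filter in the fit over the 10 lines with strain and sex. In CAST against B6D2F1, 2 were higher and 1 lower, where 17.4% of all tested genes were higher and 15.3% lower. In CASP against B6D2F1, 2 were higher and 1 lower, against 17.9% and 17.5%. In CASP against CAST, 1 was higher and 2 lower, against 15.2% and 16.4%. The median log2 difference over the 25 members was -0.05, 0.11 (-0.09 with Hoxb8, at 0 in both B6D2F1 lines, at its bound) and 0.01, beside 0.03, 0.02 and -0.02 over all tested genes. These comparisons share lines with each other. The fibroblast markers summed to 113.0 and 123.0 CPM in the B6D2F1 lines, 160.0 to 489.4 CPM in CAST and 104.6 to 461.0 CPM in CASP. The CASP range thus included both B6D2F1 lines. Against B6D2F1 the median log2 difference of the markers was 1.09 in CAST and 0.99 in CASP, with 3 of 18 higher and 0 lower by edgeR in each. The calls of higher markers were about as frequent as those of all genes (17.4% and 17.9%). Their part in the strain differences below was not tested.

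Hoxd8 differed between the castaneus strains. It stood at 2.78, 2.099, 1.96 and 0.741 CPM in CASP #M3, #M5, #F4 and #F6, at 0.668, 0.916, 0.226 and 0.729 CPM in CAST #M2, #M8, #F1 and #F2, at 0.625 and 0.473 CPM in B6D2F1 #M3 and #F2, and at 0.763 CPM in ESC. Of the CASP lines 3 were above all other pluripotent libraries, and the fourth, #F6, was within their range. MEF had 5.86 CPM and TTF 0.790 CPM. The log2 difference between CASP and CAST was 1.55 (SE 0.40, edgeR adjusted p = 0.0147), and it stayed past the threshold whichever line was left out. Against B6D2F1 it was 1.72 (SE 0.53, edgeR adjusted p = 0.0283).

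Hoxd13 was higher in both castaneus strains. It stood at 0.952 and 0.841 CPM in B6D2F1 #M3 and #F2 and 1.21 CPM in ESC. The levels were 4.19, 2.50, 1.51 and 2.12 CPM in CAST #M2, #M8, #F1 and #F2, and 2.96, 3.94, 5.26 and 2.25 CPM in CASP #M3, #M5, #F4 and #F6. All 8 castaneus lines were above the 3 B6D2F1 pluripotent libraries. CAST exceeded B6D2F1 by 1.47 on the log2 scale (SE 0.45, edgeR adjusted p = 0.0304). CASP exceeded it by 2.01 (SE 0.46, edgeR adjusted p = 0.00721). As a percentage of MEF, Hoxd13 was above the fibroblast markers in all 11 pluripotent libraries.

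Genes of chromosome 2, which carries Hoxd, were higher in CASP #F6 than in the other CASP lines by a median of 0.49 on the log2 scale (1181 genes), compared with 0.01 over all 14847 genes examined. Among the CASP lines #F6 had the lowest Hoxd8, Hoxd9 and Hoxd13 levels. Its Hoxd genes summed to 3.61 CPM against 8.14 to 9.91 CPM in the others. Any link of these levels to those of chromosome 2 was not tested. Hoxd9 was at 0.124 CPM in #F6 and 1.12 to 1.55 CPM in the other CASP lines. Without #F6 the Hoxd8 difference between CASP and CAST was 1.77 (edgeR adjusted p = 0.00517).

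**Figure D5:**
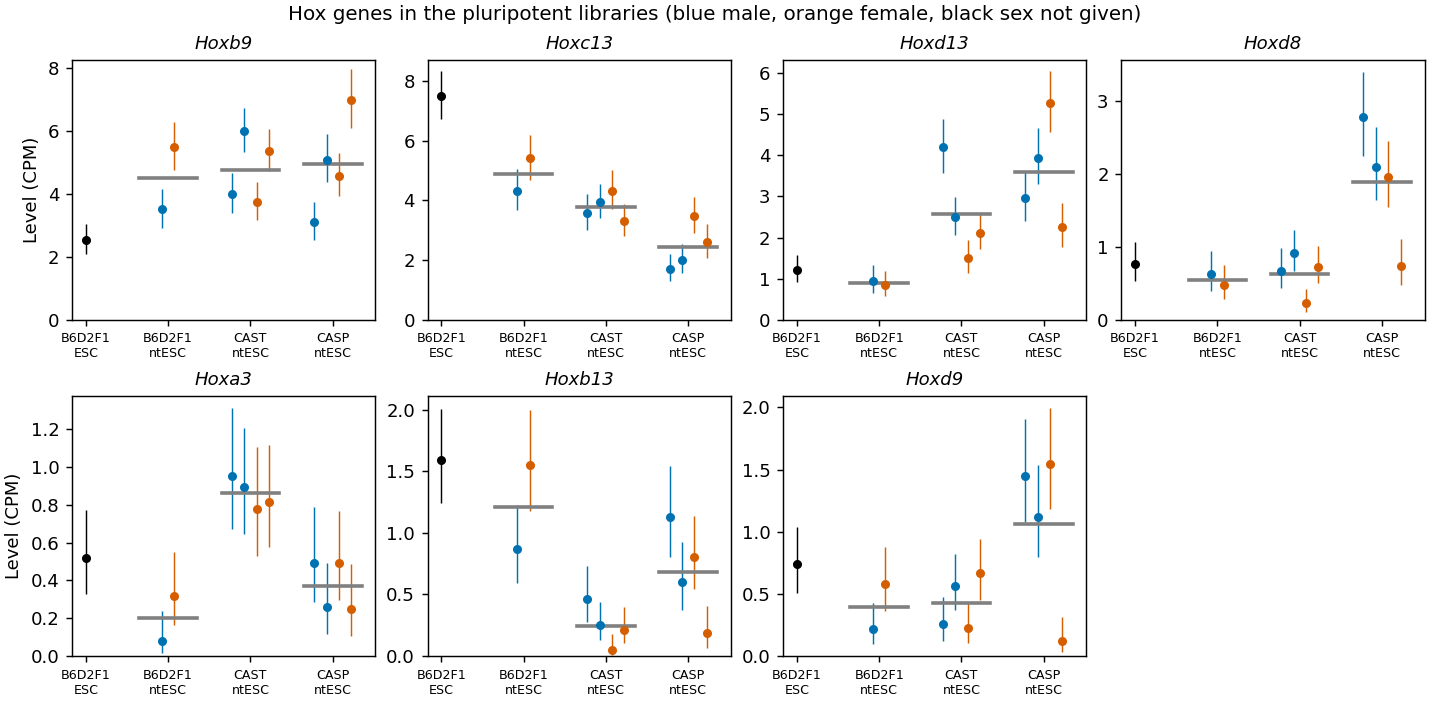
Level (CPM) of 7 Hox genes in the ESC library and the 10 ntESC lines, by strain. Bars on the points are exact 95% Poisson intervals of the counts, grey lines are means over lines, and each vertical axis starts at 0. Hoxd13 is at 1.51 CPM or more in all CAST and CASP lines and at 1.21 CPM or less in the B6D2F1 libraries, and Hoxa3 is highest in the 4 CAST lines.

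Hoxc13 was lowest in CASP, with the values per line given above. The CASP mean was 2.45 ± 0.78 CPM (SD, n = 4), against 3.78 ± 0.44 in CAST (n = 4) and 4.87 ± 0.77 in B6D2F1 (n = 2). The log2 difference was -1.02 from B6D2F1 (SE 0.25, edgeR adjusted p = 0.0105) and -0.67 from CAST (SE 0.22, adjusted p = 0.0389). One CASP line, #F4 at 3.48 CPM, overlapped the CAST lines.

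Hoxa3, which is needed for the thymus and parathyroid glands, was highest in CAST. It stood at 0.951, 0.895, 0.778 and 0.814 CPM in CAST #M2, #M8, #F1 and #F2, 0.0816 and 0.315 CPM in B6D2F1 #M3 and #F2, and 0.516 CPM in ESC. The CASP lines #M3, #M5, #F4 and #F6 had 0.493, 0.259, 0.490 and 0.247 CPM. CAST did not overlap any other group. The log2 difference from B6D2F1 was 2.11 (SE 0.59, edgeR adjusted p = 0.0196), and that of CASP from CAST was -1.21 (adjusted p = 0.0527). As a percentage of MEF (21.75 CPM), Hoxa3 was below the fibroblast markers in 8 of the 11 pluripotent libraries and above them in 3.

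Hoxb13 had its lowest strain mean in CAST. It stood at 0.463, 0.250, 0.0502 and 0.214 CPM in CAST #M2, #M8, #F1 and #F2, 0.870 and 1.55 CPM in B6D2F1 #M3 and #F2, 1.59 CPM in ESC, and 1.13, 0.604, 0.800 and 0.185 CPM in CASP #M3, #M5, #F4 and #F6. The CAST and B6D2F1 lines did not overlap. The log2 difference between them was -2.48 (SE 0.70, edgeR adjusted p = 0.0202).

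With only 2 B6D2F1 lines, these calls were fragile. Without B6D2F1 #M3, Hoxa3 (1.37, edgeR adjusted p = 0.196) and Hoxd13 (1.39, adjusted p = 0.2) were no longer called in CAST. Without B6D2F1 #F2, Hoxb13 (-1.44, edgeR adjusted p = 0.288) and Hoxd13 (1.57, adjusted p = 0.135) were not. None of the 3 calls of CASP against B6D2F1 held without either B6D2F1 line, with adjusted p-values of 0.0589 to 0.201. Single castaneus lines also decided calls. Hoxd13 in CAST was lost without CAST #M2 (edgeR adjusted p = 0.0592) or CAST #F2 (0.0505), Hoxb13 without CAST #M8 (0.0505), and Hoxd8 in CASP against B6D2F1 without CASP #M3 (0.0588) or CASP #F4 (0.063). The Hoxc13 call of CASP against CAST was lost in 8 of the 10 fits that left out 1 line and held without CAST #F2 or CASP #F4, with edgeR adjusted p-values of 0.0608 to 0.113 where lost. Reads were aligned to the C57BL/6J reference, so differences between B6D2F1 and castaneus lines may include reads lost from castaneus alleles, which was not tested.

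Noncoding and flanking genes of the clusters were called between strains about as often as genes overall. Of 11 tested, CAST against B6D2F1 gave 2 higher and 1 lower, CASP against B6D2F1 gave 2 and 2, and CASP against CAST gave 2 and 1, beside the percentages of all genes given above. Ttll6, beside Hoxb, was higher than in B6D2F1 in CAST (1.53, edgeR adjusted p = 0.0065) and in CASP (1.39, adjusted p = 0.00952). Skap2, beside Hoxa, was lower than in B6D2F1 in CAST (-0.89, edgeR adjusted p = 0.000454) and in CASP (-0.86, adjusted p = 0.000482). Lnpk, beside Hoxd, was higher in CAST (0.41, edgeR adjusted p = 0.0207) and in CASP (0.71, adjusted p = 0.00116). Halr1, beside Hoxa, was lower in CASP than in CAST (-0.62, edgeR adjusted p = 0.0221) and than in B6D2F1 (-0.78, adjusted p = 0.0151). The caudal gene Cdx4 was higher in both as well (2.57, edgeR adjusted p = 0.037 in CAST and 2.50, adjusted p = 0.0388 in CASP).

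Between female and male lines no Hox gene was called. Of 12 members tested by edgeR, 0 were called at an adjusted p of 0.05 and 0 at an unadjusted p of 0.05, and DESeq2 called 0. Over all 18560 genes tested, 0.0% were higher and 0.0431% (8 genes) lower in females. The lowest unadjusted edgeR p was that of Hoxd8 (0.0735), with a log2 difference of -0.72.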

How the data were processed

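Poly(A) RNA was sequenced as 100-base paired-end reads from stranded libraries. According to the submitters' notes, fastp 0.22.0 served for trimming, HISAT2 2.2.1 for alignment against GRCm38 and StringTie 2.1.7 for quantification. The deposited table made by the authors holds whole counts per gene, not normalized, and no gene whose highest level was under 0.503 CPM. A second deposited table of log2 values was not used. Members and lists were chosen with earlier results of these data known, so they are no independent evidence.

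CPM were computed with TMM factors of all 13 libraries. Groups were compared with edgeR 4.0.16 (filterByExpr, quasi-likelihood test, Benjamini-Hochberg over all tested genes, threshold 0.05) and, as an alternative, DESeq2 1.42.0. The strain and sex comparisons came from 1 fit over the 10 lines. MEF and TTF, 1 library each, were compared by CPM + 0.5 with exact 95% intervals. Lengths, overlaps and homeoboxes came from GENCODE M21, which holds 21675 of the genes. The fits were tested on simulated counts. Full values are given for members called between strains or sexes, the 3 of highest pluripotent level, the highest per length in each cluster and culture, and up to 4 per direction past 4-fold. Other genes named were chosen after their values were seen. The results of 1 member and 1 cofactor are not reported here, and both genes stand in the counts and sums.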

Additional observations from a re-analysis of the deposited data

Results flagged for a closer look

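In 3 genes all 10 ntESC lines lay above one fibroblast library and below the other, so that the direction against fibroblasts turned with the culture. The share of all genes placed in this way was not determined. Hoxd13 had a median of 2.38 CPM in the lines (0.841 to 5.26), against 0.0527 CPM in TTF and 13.7 CPM in MEF. Hoxd1 had a median of 0.208 CPM (0.0575 to 0.502), against 0 in TTF and 0.802 CPM in MEF. Its lowest line was under the floor of 3 counts in TTF (0.079 CPM), so not every line is shown to exceed TTF. Hoxc13 had a median of 3.53 CPM (1.71 to 5.41), against 1.41 CPM in MEF and 41.9 CPM in TTF. The difference between the 2 contrasts was not tested. The 4 lines of CAST and of CASP were searched for 1 line whose gap to its nearest neighbour, as a share of the whole range, exceeded Dixon's 95% critical value. In 22 sets of values (named members, the sums of the 43 members, of the Hoxd genes and of the fibroblast markers, each in both strains) 0 exceeded it. CASP #F6 came near it, with a share of 0.718 for the sum of the 9 coding Hoxd genes and 0.700 for Hoxd9.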

How the results depend on the processing

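No paired analysis was possible because the numbers of the lines name separate cell lines and are not shared by design between groups. Against the fibroblasts, 1 member was higher and 33 lower; the fit of all 13 libraries gave 2 higher, and leaving out 1 library gave 0 to 3 higher. In CAST against B6D2F1 (2 higher, 1 lower), a mean CPM of at least 1 left 1 higher and 0 lower, the fit of all 13 libraries gave 2 lower, and leaving out 1 line gave 0 to 2 higher and 0 to 2 lower. In CASP against B6D2F1 (2 higher, 1 lower), the fit of all 13 libraries gave 2 lower, and leaving out 1 line gave 0 to 2 higher and 0 to 1 lower. In CASP against CAST (1 higher, 2 lower), the fit without sex gave 1 lower, and leaving out 1 line gave 1 to 3 higher and 0 to 2 lower. Between TTF and MEF, a fold of 2 gave 7 members higher in TTF in place of 4. Of the 9 members over 3 counts in all 11 pluripotent libraries, 4 had at least 0.5 CPM and 4 at least 10 counts in all. The cause of these changes was not tested.

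Other settings (RLE factors, library size only, no filter, DESeq2) kept the counts of calls within 1.5 times of those given. With 1 MEF and 1 TTF library, 2 B6D2F1 lines and members mostly at few counts in the lines, small differences could not be detected, and B6D2F1, MEF and TTF values rest on few cultures.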
